A study of Mus musculus with 20 samples.

Results

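The 10 genes described here are the angiogenic ligands Vegfa, Angpt1 and Angpt2, the receptors Kdr, Flt1, Nrp1 and Tek, and the endothelial markers Pecam1, Cdh5 and Clec1a. The list is given by gene name with no threshold on a value, and all 10 were matched by symbol to the 55487 genes counted in each library. The RNA came from mural granulosa cells (GCs) of the largest ovarian follicles of adult female mice. According to the paper, care was taken to leave out the oocyte and its cumulus cells. Mice of the Dummerstorf high fertility line FL1, bred over many generations for large litters, were set against mice of an unselected control line (ctrl) from the same founders, in estrus or in diestrus as read from vaginal smears. Each of the 4 groups, ctrl in estrus, ctrl in diestrus, FL1 in estrus and FL1 in diestrus, held 5 mice with 1 library each, so that p-values measure the spread between mice. The labels name no transgene and no treatment for any group. As a model of granulosa cells the groups are limited by the preparation, since cells from several follicles of a mouse were pooled, and no sort that would take out cells of the follicle wall or blood is described.

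Endothelial cells line blood vessels, and they answer to VEGF-A through the receptors VEGFR2 (Kdr) and VEGFR1 (Flt1), with neuropilin 1 (Nrp1) as a co-receptor. Angiopoietin 1 (Angpt1) activates the endothelial receptor TIE2 (Tek) and steadies vessels, whereas angiopoietin 2 (Angpt2) acts on the same receptor mostly as a context-dependent antagonist. The granulosa layer of a follicle has no vessels of its own until ovulation, and granulosa cells are known as a source of VEGF-A for the vessels of the theca, from which capillaries grow into the forming corpus luteum.

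All 10 are protein-coding genes, placed here on GRCm38. Vegfa lies at chr17:46016993-46032369, Angpt1 at chr15:42424723-42676977, Angpt2 at chr8:18690263-18741562, Kdr at chr5:75932827-75978458 and Flt1 at chr5:147561604-147726011. Nrp1 lies at chr8:128358604-128503363, Tek at chr4:94739289-94874976, Pecam1 at chr11:106654217-106750628, Cdh5 at chr8:104101625-104144511 and Clec1a at chr6:129424772-129452000. Angpt2 lies opposite Mcph1, with which it shares 0 exonic bases, and Angpt1 shares 737 exonic bases with Gm17473, which had at most 13 counts in a library. The source does not state whether reads were counted by strand, so reads in the bases shared by Angpt1 and Gm17473 may have been left out as ambiguous.

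To show the starts of the VEGF-A ligand gene and of its 3 receptor genes, the 250 bases before the RefSeq start (GRCm38.p6) are given in the direction of transcription. They are chr17:46032378-46032627 (minus strand) for Vegfa, chr5:75978456-75978705 (minus strand) for Kdr, chr5:147726012-147726261 (minus strand) for Flt1 and chr8:128358823-128359072 (plus strand) for Nrp1. Capitals mark the core of the hypoxia response element, ACGTG or GCGTG on either strand, which HIF proteins bind.
Vegfa: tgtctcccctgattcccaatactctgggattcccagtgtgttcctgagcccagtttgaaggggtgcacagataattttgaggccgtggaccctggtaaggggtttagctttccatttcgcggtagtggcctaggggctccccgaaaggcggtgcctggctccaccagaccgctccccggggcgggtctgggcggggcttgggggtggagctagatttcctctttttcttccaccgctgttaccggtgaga
Kdr: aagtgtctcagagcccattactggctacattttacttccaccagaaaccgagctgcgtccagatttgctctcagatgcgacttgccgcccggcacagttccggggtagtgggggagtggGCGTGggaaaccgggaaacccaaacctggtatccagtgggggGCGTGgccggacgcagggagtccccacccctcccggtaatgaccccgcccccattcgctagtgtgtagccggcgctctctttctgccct
Flt1: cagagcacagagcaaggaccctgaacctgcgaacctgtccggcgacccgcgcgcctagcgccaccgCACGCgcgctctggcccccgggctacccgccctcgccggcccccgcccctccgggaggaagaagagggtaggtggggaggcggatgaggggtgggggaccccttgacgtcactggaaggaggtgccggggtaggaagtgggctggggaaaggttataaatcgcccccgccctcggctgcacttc
Nrp1: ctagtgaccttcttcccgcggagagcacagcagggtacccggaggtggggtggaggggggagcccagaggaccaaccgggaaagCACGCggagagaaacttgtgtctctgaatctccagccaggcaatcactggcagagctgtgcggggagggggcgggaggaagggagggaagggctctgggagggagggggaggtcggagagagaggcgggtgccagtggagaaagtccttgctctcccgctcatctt
The Kdr window held 2 cores, the Flt1 and Nrp1 windows 1 each and the Vegfa window 0. The window before the other listed Vegfa start (chr17:46025164-46025413) held 2, but it lies inside the Vegfa gene. Of 32851 listed mouse promoter windows of this length, 38.6% held ACGTG or GCGTG, so that such a match is common and describes the letters of the window only. Among the 10 genes, 5 had a window in the table, and the Tek window held 0 cores. Clec1a, Angpt1, Angpt2, Pecam1 and Cdh5 had none.

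Between 5446576 and 8257041 reads per library fell on genes. Levels are given as CPM, the counts of a gene relative to the size of its library, scaled by the trimmed mean of M-values (TMM), and because the 3′ libraries yield 1 tag per transcript, a count does not grow with transcript length and CPM can be set side by side between genes. A level of 3 counts, taken as the floor, stood for 0.343 to 0.545 CPM. Over the 20 mice Vegfa had the highest mean level of the 10 genes at 71.8 CPM, followed by Clec1a (47.1 CPM), Nrp1 (34.2 CPM), Angpt2 (30.7 CPM), Kdr (18.6 CPM), Flt1 (10.4 CPM), Cdh5 (9.56 CPM), Pecam1 (6.78 CPM), Angpt1 (4.97 CPM) and Tek (1.66 CPM). Vegfa stood above 80.8% of the 14938 genes kept over all libraries, and Tek above 10.3% of them. Tek had 0 counts in 8 libraries and Angpt1 in 4, and Flt1 and Pecam1 had 0 counts in 1 library each. The genes were also ordered by their mean within each group. In ctrl mice in estrus the 5 Vegfa values lay above the 5 values of Nrp1, the next gene in that group. Neighbours further down the order of that group overlapped. In the other 3 groups all neighbours in the order of the group overlapped.

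**Figure D1:**
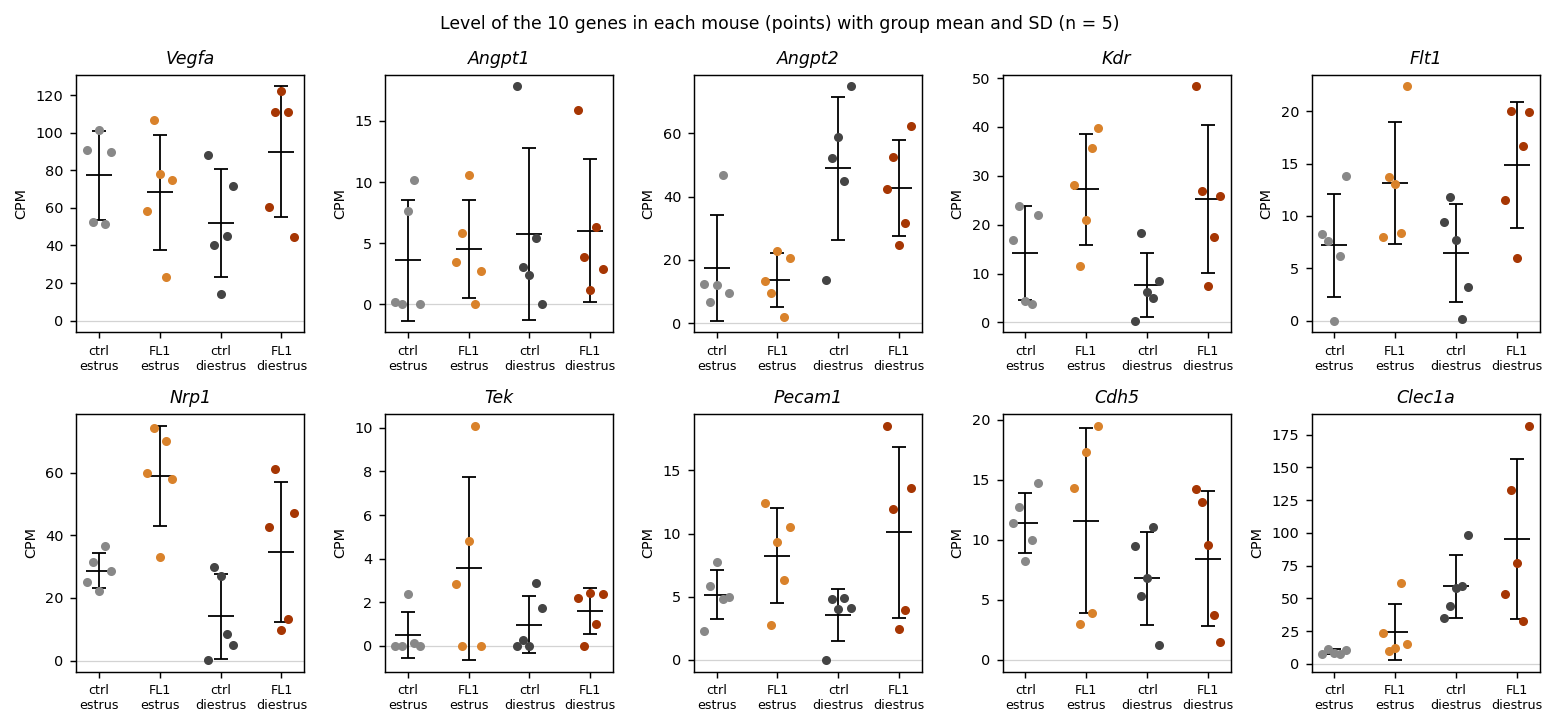
Level of each of the 10 genes in CPM (vertical axis, its own scale in each panel) in the 20 mice, 1 point per mouse, by group, with the group mean and SD as bars (n = 5). Clec1a of ctrl mice sits between 7.43 and 11.5 CPM in estrus and between 35.3 and 98.4 CPM in diestrus, while the groups of Pecam1 and Cdh5 overlap throughout.

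Of the 10 genes, Clec1a and Angpt2 differed most between the stages, and both had their higher means in diestrus in either line. Clec1a was 6.44-fold higher in diestrus than in estrus in ctrl mice, a call that passed the test, and 3.87-fold higher in FL1 mice, which did not. Angpt2 was 2.78-fold higher in ctrl mice and 3.10-fold higher in FL1 mice, and neither passed on its own. Between the lines, Nrp1, Kdr, Flt1, Pecam1 and Clec1a had higher means in FL1 mice in both stages, and none of these differences passed the edgeR test at an adjusted p of at most 0.05. In such bulk samples fewer cells of a type and less RNA per cell cannot be told apart.

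Among the ligands, Angpt2 had 12.2, 6.51, 11.9, 47.0 and 9.52 CPM in the 5 ctrl mice in estrus and 13.6, 52.2, 59.0, 45.1 and 74.9 CPM in the 5 ctrl mice in diestrus. Replicate 4 in estrus and replicate 1 in diestrus stood apart from the rest of their groups, and with them the groups overlapped. Diestrus against estrus gave a log2 fold change of 1.48 ± 0.51 (SE, edgeR adjusted p = 0.208). Without estrus replicate 4 it was 2.28 ± 0.43 (edgeR adjusted p = 0.0230). With all mice and no filter on low counts Angpt2 was called as well (edgeR adjusted p = 0.0260), so that the call depended on this mouse and on the filter. In FL1 mice Angpt2 had 13.3, 9.49, 22.8, 1.96 and 20.7 CPM in estrus and 42.4, 52.5, 24.8, 31.5 and 62.4 CPM in diestrus. Each diestrus value lay above each estrus value, a separation that 2.42% of the 13114 genes tested in FL1 mice showed in either direction and 1.1% in this direction. This amounted to a log2 fold change of 1.63 ± 0.47 (edgeR adjusted p = 0.175), which was called with no filter on low counts (edgeR adjusted p = 0.00747) and not with DESeq2 (adjusted p = 0.0507).

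When the 20 libraries were fitted together with line as a covariate, a fit added after the data had been seen, Angpt2 had a mean of 45.8 ± 18.5 CPM in diestrus and 15.5 ± 12.6 CPM in estrus (SD, n = 10). Its log2 fold change was 1.57 ± 0.37 (edgeR adjusted p = 0.0137), and Angpt2 was stronger expressed in diestrus in that fit. The adjusted p stayed between 0.000639 and 0.0377 over the alternatives to this fit. Between the lines Angpt2 differed by a log2 fold change of -0.36 ± 0.61 in estrus and -0.19 ± 0.37 in diestrus (edgeR adjusted p = 0.921 and 1.00). Mcph1, the gene on the opposite strand, had mean levels of 32.6 CPM in estrus and 43.3 CPM in diestrus in ctrl mice, and 37.1 and 39.1 CPM in FL1 mice.

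Vegfa, the ligand of Kdr and Flt1, had 90.9, 52.6, 101.4, 51.5 and 90.0 CPM in ctrl mice in estrus and 58.1, 106.7, 78.3, 23.4 and 75.0 CPM in FL1 mice in estrus. In diestrus it had 88.1, 40.3, 14.4, 45.1 and 71.4 CPM in ctrl mice and 60.6, 110.8, 122, 110.98 and 44.5 CPM in FL1 mice. The lines overlapped in both stages, and 3 of 5 FL1 mice in diestrus lay above each ctrl mouse. FL1 against ctrl mice gave -0.18 ± 0.32 in estrus and 0.80 ± 0.39 in diestrus on the log2 scale (edgeR adjusted p = 0.924 and 0.910). From estrus to diestrus the value was -0.58 ± 0.36 in ctrl mice and 0.39 ± 0.35 in FL1 mice (edgeR adjusted p = 0.622 and 0.819). The difference between these 2 stage effects, 0.97 ± 0.54 on the log2 scale, had an unadjusted p of 0.0814 and an edgeR adjusted p of 1.00.

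Angpt1, the agonist of Tek, was too low for a firm statement. Its mean was 3.59 ± 4.94 CPM in ctrl mice in estrus, 4.53 ± 3.99 CPM in FL1 mice in estrus, 5.75 ± 7.03 CPM in ctrl mice in diestrus and 6.02 ± 5.83 CPM in FL1 mice in diestrus (SD, n = 5 each). The SD was as large as the mean or nearly so in each group, and 4 libraries held 0 counts. A change of the size of its SE, 1.01 to 1.46 on the log2 scale in the 4 comparisons of groups, was not detectable at this depth.

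Among the receptors, Nrp1, the co-receptor for VEGF-A and for class 3 semaphorins, had 25.1, 31.5, 22.1, 36.5 and 28.7 CPM in ctrl mice in estrus and 60.0, 74.3, 33.2, 70.0 and 58.2 CPM in FL1 mice in estrus. Of the FL1 mice 4 of 5 lay above each ctrl mouse, and replicate 3 lay within the ctrl range. It differed by 1.04 ± 0.26 on the log2 scale, with an unadjusted p of 0.000977 and an edgeR adjusted p of 0.0779. Nrp1 was called with DESeq2 (adjusted p = 0.00987), without a filter on low counts in edgeR (adjusted p = 0.0342) and in edgeR without FL1 replicate 3 (log2 fold change 1.20 ± 0.25, adjusted p = 0.0353), and over all alternatives run its adjusted p ranged from 0.00987 to 0.565.

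In diestrus Nrp1 had 0.178, 30.0, 26.9, 8.36 and 4.95 CPM in ctrl mice and 42.7, 61.1, 9.72, 13.1 and 47.2 CPM in FL1 mice. Ctrl replicate 1 held 1 count of Nrp1, and 3 of 5 FL1 mice lay above each ctrl mouse. On the log2 scale FL1 against ctrl mice gave 1.31 ± 0.75 (edgeR adjusted p = 1.00) and 0.99 ± 0.59 without ctrl replicate 1 (edgeR adjusted p = 0.999). Nrp1 means were lower in diestrus than in estrus, with a log2 fold change of -1.03 ± 0.67 in ctrl mice and -0.77 ± 0.41 in FL1 mice, and neither passed the test (edgeR adjusted p = 0.643 and 0.609).

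Kdr, the main signalling receptor for VEGF-A, had 16.9, 23.9, 4.46, 3.68 and 22.0 CPM in ctrl mice in estrus and 28.1, 11.6, 21.05, 35.8 and 39.9 CPM in FL1 mice in estrus. In diestrus it had 0.357, 18.2, 6.14, 5.09 and 8.56 CPM in ctrl mice and 48.3, 26.8, 7.45, 17.6 and 25.9 CPM in FL1 mice. In each stage 3 of 5 FL1 mice lay above each ctrl mouse, and the groups overlapped. The log2 fold change of FL1 against ctrl was 0.94 ± 0.51 in estrus and 1.72 ± 0.66 in diestrus (edgeR adjusted p = 0.539 and 0.737). Without ctrl replicate 1, which held 2 counts of Kdr, the value in diestrus was 1.41 ± 0.52 (edgeR adjusted p = 0.734). With the 20 libraries in 1 fit and stage as a covariate, again added after the data had been seen, the FL1 mean was 26.3 ± 12.6 CPM against 10.9 ± 8.48 CPM in ctrl mice (SD, n = 10), and the log2 fold change of 1.32 ± 0.44 had an unadjusted p of 0.00564 and an edgeR adjusted p of 0.169.

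Flt1, the VEGF-A receptor that also acts as a decoy, had a mean of 7.19 ± 4.96 CPM in ctrl mice and 13.1 ± 5.80 CPM in FL1 mice in estrus, and 6.47 ± 4.71 CPM in ctrl mice and 14.8 ± 6.03 CPM in FL1 mice in diestrus (SD, n = 5 each). Between the lines the log2 fold change was 0.87 ± 0.77 in estrus and 1.20 ± 0.70 in diestrus (edgeR adjusted p = 0.784 and 1.00). Between the stages Flt1 differed by -0.15 ± 1.03 in ctrl mice and 0.17 ± 0.45 in FL1 mice on the log2 scale. Tek, the angiopoietin receptor, had 0, 0, 21, 1 and 0 counts in ctrl mice in estrus, 18, 0, 31, 72 and 0 counts in FL1 mice in estrus, 0, 2, 0, 16 and 13 counts in ctrl mice in diestrus and 14, 0, 15, 6 and 14 counts in FL1 mice in diestrus. With these counts Tek passed the filter on low counts in neither the comparison of the lines in estrus nor that of the stages in ctrl mice, and no difference of Tek was detectable at this depth.

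Among the endothelial markers, Pecam1, an adhesion molecule of endothelial junctions and of some blood cells, had 2.33, 5.89, 7.78, 4.86 and 5.02 CPM in ctrl mice in estrus and 12.4, 2.75, 9.36, 6.31 and 10.5 CPM in FL1 mice in estrus. In diestrus it had 0, 4.82, 4.002, 4.91 and 4.15 CPM in ctrl mice and 18.6, 11.9, 2.43, 3.92 and 13.6 CPM in FL1 mice. In each stage 3 of 5 FL1 mice lay above each ctrl mouse, and the lines overlapped. The log2 fold change of FL1 against ctrl was 0.67 ± 0.68 in estrus and 1.50 ± 0.88 in diestrus (edgeR adjusted p = 0.828 and 1.00), and without ctrl replicate 1 the latter was 1.17 ± 0.68 (edgeR adjusted p = 0.999). Cdh5, the cadherin of endothelial junctions, had means of 11.4 ± 2.48 CPM in ctrl mice and 11.6 ± 7.67 CPM in FL1 mice in estrus, and 6.78 ± 3.83 and 8.44 ± 5.62 CPM in diestrus (SD, n = 5 each). Its log2 fold change from estrus to diestrus was -0.76 ± 0.60 in ctrl mice and -0.46 ± 0.67 in FL1 mice (edgeR adjusted p = 0.724 and 0.908).

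Clec1a encodes a C-type lectin-like receptor that is described on endothelial and dendritic cells. It had 7.43, 11.5, 8.24, 7.66 and 10.9 CPM in ctrl mice in estrus and 35.3, 44.3, 58.3, 59.8 and 98.4 CPM in ctrl mice in diestrus. The lowest diestrus value was above the highest estrus value, as for 3.66% of the 12850 genes tested in ctrl mice in either direction and 1.82% in this direction. Clec1a was stronger expressed in diestrus with a log2 fold change of 2.69 ± 0.32 (edgeR adjusted p = 0.000563). The call held in each of the alternatives run and without any 1 mouse, with adjusted p-values from 1.73e-13 to 0.00734.

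In FL1 mice Clec1a had 23.2, 9.74, 12.2, 61.6 and 15.3 CPM in estrus and 53.5, 133, 77.1, 32.4 and 182 CPM in diestrus. Of the diestrus mice 3 of 5 lay above each estrus mouse, and replicate 4 of the estrus group lay far above the other estrus mice. This was a log2 fold change of 1.95 ± 0.50 (edgeR adjusted p = 0.118). Without estrus replicate 4 it was 2.65 ± 0.45 (edgeR adjusted p = 0.0156), and DESeq2 called it with this mouse included (adjusted p = 0.0139). Over the 20 libraries, with line as a covariate, Clec1a was stronger expressed in diestrus, with means of 77.4 ± 47.8 CPM against 16.8 ± 16.4 CPM (SD, n = 10) and a log2 fold change of 2.32 ± 0.32 (edgeR adjusted p = 0.000124). The stage effects of the lines differed by -0.73 ± 0.62 on the log2 scale (edgeR adjusted p = 1.00).

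Between the lines the Clec1a mean was 24.4 ± 21.4 CPM in FL1 mice against 9.14 ± 1.90 CPM in ctrl mice in estrus, with 4 of 5 FL1 mice above each ctrl mouse, and 95.5 ± 61.1 against 59.2 ± 24.1 CPM in diestrus. The log2 fold change was 1.41 ± 0.49 in estrus and 0.69 ± 0.39 in diestrus (edgeR adjusted p = 0.243 and 0.999). In estrus the value was 0.72 ± 0.46 without FL1 replicate 4.

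**Figure D2:**
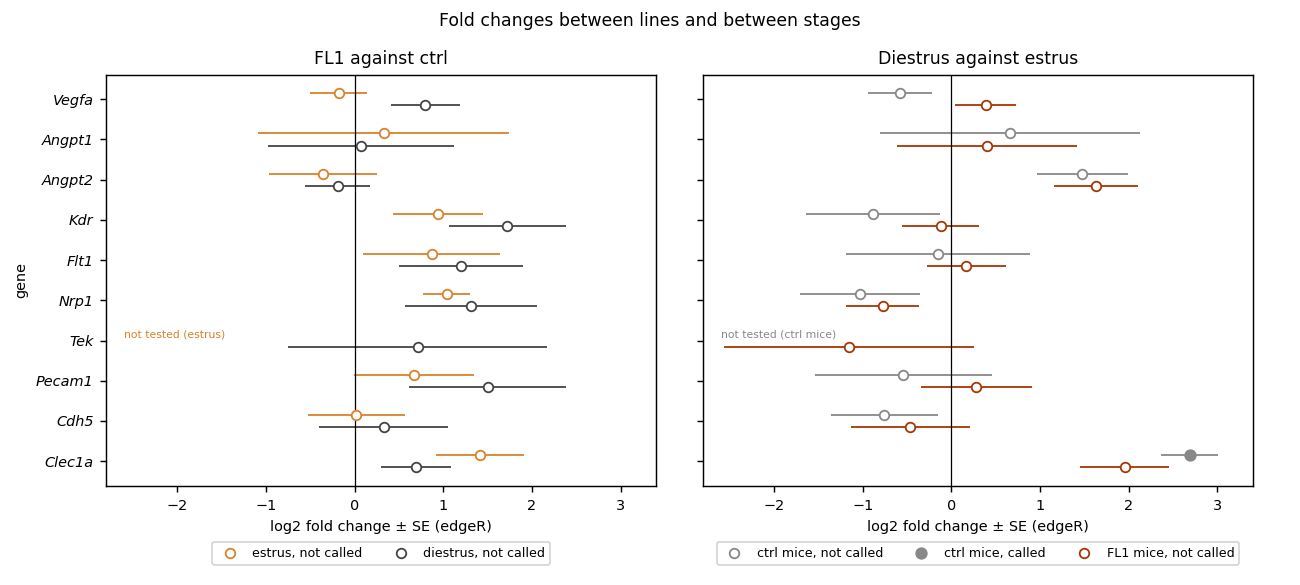
Log2 fold change with its SE (horizontal axis, edgeR) of each of the 10 genes, FL1 against ctrl mice in each stage on the left and diestrus against estrus in each line on the right, where a filled symbol stands for an adjusted p of at most 0.05. The filled symbol is Clec1a in ctrl mice at 2.69, with the Clec1a value of FL1 mice and both Angpt2 values to the right of 0 beside it.

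Of the members tested, 0 of 9 passed the test between the lines in estrus, where 0.769% of the 13007 genes tested did, and 0 of 10 in diestrus, where 0.248% did. Between the stages 1 of 9 passed in ctrl mice, against 1.36% of all genes tested, and 0 of 10 in FL1 mice, against 0.221%. DESeq2 called 1 of 10 in FL1 mice (Clec1a), against 1.74% of the genes it tested. With both lines in 1 fit, 2 of 10 passed between the stages, against 3.17% of the 14938 genes tested, and with both stages in 1 fit 0 of 10 passed between the lines, against 1.21%. At an unadjusted p under 0.05 there were 2 members in estrus (Nrp1 and Clec1a, 10.7% of all genes) and 1 in diestrus (Kdr, 5.56% of all genes). DESeq2 called 1 and 0 members in these comparisons, beside 2.7% and 0.722% of the genes it tested. The difference of the stage effects between the lines was called for 0 of 10 members, with 0 at an unadjusted p under 0.05, and for 0.0% of all genes, of which 4.75% had an unadjusted p under 0.05. By DESeq2 it was called for 0 members and for 0.00383% of all genes.

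The fold changes between the lines lay mostly on the FL1 side. In estrus 7 of 9 tested members had a log2 fold change above 0, with a median of 0.67, beside 50.5% of all genes tested and a median of 0.01. In diestrus it was 9 of 10, with a median of 0.76, beside 51.3% of all genes and a median of 0.01. The exception in diestrus was Angpt2, and those in estrus were Angpt2 and Vegfa. Between the stages 3 of 9 members had a value above 0 in ctrl mice (Angpt1, Angpt2 and Clec1a), with a median of -0.54, beside 50.4% of all genes, and 6 of 10 in FL1 mice, with a median of 0.22, beside 51.1% of all genes. Members that sit on the same cells are not separate evidence of a direction.

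**Figure D3:**
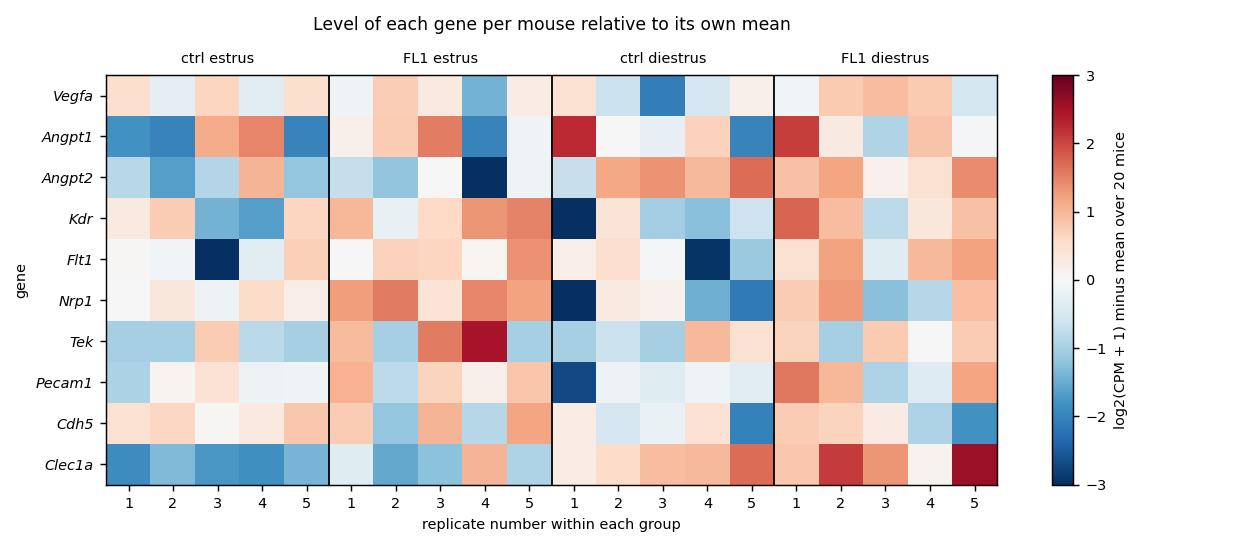
Level of each of the 10 genes (rows) in each of the 20 mice (columns, by group and replicate number), as log2(CPM + 1) minus the mean of that gene over the 20 mice, where red is above and blue below that mean. Clec1a and Angpt2 are mostly blue in estrus and red in diestrus, and replicate 1 of the ctrl diestrus group is dark blue for Kdr, Nrp1 and Pecam1.

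To tell genes that moved with vessel markers from those that did not, each member was set beside the summed CPM of 18 other endothelial markers. The CPM were added without scaling each marker, so markers at higher levels weighed more in the sum. Egfl7 (21.85 CPM), Cd34 (16.03 CPM) and Esam (10.99 CPM) had the highest means of the 18 over the 20 mice, and Ptprb came next at 6.95 CPM. A correlation with the sum therefore leans on the markers at higher levels. Endothelial transcripts were scarce, for 13 of the 24 markers on the whole list, members included, averaged less than 5 CPM, and 6 were detected in all 20 libraries (Cdh5, Clec1a, Kdr, Esam, Egfl7 and Cd34). Vwf, Robo4, Sox17, Erg and Ecscr were at 0 counts in 16, 15, 11, 10 and 10 libraries. The summed level of the 18 ran from 50.1 to 153 CPM in ctrl mice in estrus, 59.7 to 175 CPM in FL1 mice in estrus, 36.9 to 93.4 CPM in ctrl mice in diestrus and 43.6 to 222 CPM in FL1 mice in diestrus, with medians of 95.3, 122, 46.5 and 82.4 CPM. The 10 granulosa markers, Fshr and Cyp19a1 among them, summed to 5952 to 15425 CPM.

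Across the 20 mice, on the log2 scale, Pearson's r with this sum was 0.73 for Pecam1, 0.66 for Kdr, 0.64 for Nrp1 and 0.48 for Cdh5. It was 0.22 for Flt1, 0.10 for Tek and 0.07 for Angpt1, and it was -0.12 for Vegfa, -0.13 for Angpt2 and -0.14 for Clec1a. With the group means removed the values were 0.68, 0.56, 0.50 and 0.44 for Pecam1, Kdr, Nrp1 and Cdh5, 0.09, 0.01 and 0.11 for Flt1, Tek and Angpt1, and -0.33, 0.20 and 0.14 for Vegfa, Angpt2 and Clec1a. These r are descriptions, since the genes of a mouse share their library, its depth and its cell mixture, and those at a few counts can hardly follow anything. Among the members themselves, Nrp1 with Pecam1 and Kdr with Nrp1 had r of 0.80 each, Kdr with Pecam1 0.79 and Angpt2 with Clec1a 0.48, which became -0.18 with the group means removed.

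Clec1a did not follow the summed level of the other endothelial markers, and neither did Flt1 or Tek, both of them at lower counts. Without Clec1a the endothelial sum had a median of 128 CPM in estrus and 70.7 CPM in diestrus in ctrl mice, whereas Clec1a rose in them. In FL1 mice the medians of that sum were 188 CPM in estrus and 146 CPM in diestrus. Of the 15 endothelial markers tested between the stages in ctrl mice, Clec1a was the 1 that was called, and 12 had a log2 fold change below 0, with a median of -0.54. In FL1 mice 0 of 16 were called, with 8 above and 8 below 0 and a median of -0.03. Which cells of the preparation hold the transcript was not tested.

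**Figure D4:**
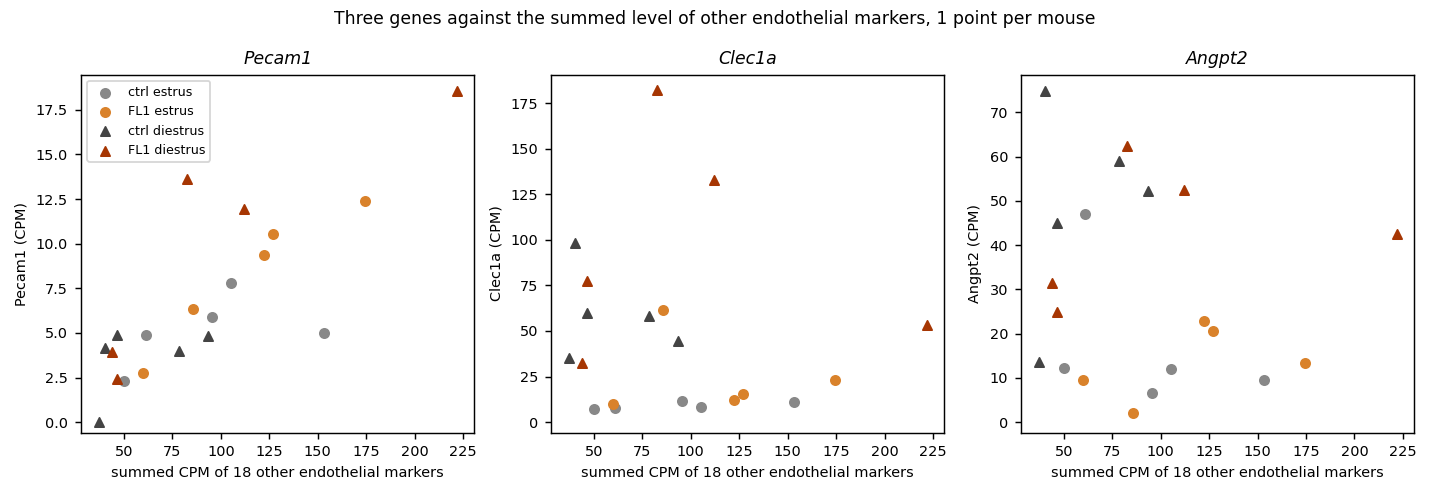
Level of Pecam1, Clec1a and Angpt2 in CPM (vertical axes) against the summed CPM of 18 other endothelial markers (horizontal axes), 1 point per mouse, circles for estrus and triangles for diestrus. Pecam1 goes up with the sum (r = 0.73 on the log2 scale). The diestrus triangles of Clec1a and Angpt2 lie mostly above the estrus circles where both stages have mice at similar sums.

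Markers of other cell types also differed between the groups. The 8 leukocyte markers summed to 10.2 to 35.6 CPM in ctrl mice and 35.3 to 81.4 CPM in FL1 mice in estrus, and to 3.27 to 14.2 CPM and 8.59 to 67.7 CPM in diestrus. Lyz2, a lysozyme of macrophages and other myeloid cells, was stronger expressed in FL1 mice over both stages (log2 fold change 2.09 ± 0.38, edgeR adjusted p = 0.00226). The 5 red cell markers summed to 290 to 675 CPM and 323 to 1111 CPM in estrus and to 47.6 to 351 CPM and 138 to 1620 CPM in diestrus, in ctrl and FL1 mice in that order. Their part in the higher FL1 means of Nrp1, Kdr, Flt1 and Pecam1 was not tested.

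The libraries at the ends of these sums bear on the receptors and Pecam1. Replicate 1 of ctrl mice in diestrus had the lowest sum of the 18 endothelial markers (36.9 CPM) and of the red cell markers (47.6 CPM), and 4 of the 10 members were at or under 3 counts in it. Replicate 1 of FL1 mice in diestrus had the highest of both (222 and 1620 CPM), and the highest Kdr and Pecam1 of all 20 mice. Without the FL1 mouse the log2 fold change of FL1 against ctrl in diestrus was 1.35 ± 0.70 for Kdr and 1.16 ± 0.98 for Pecam1.

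The theca and stroma markers summed to medians of 1234 CPM in estrus and 539 CPM in diestrus in ctrl mice and to 1162 and 832 CPM in FL1 mice, and the pericyte and smooth muscle markers to medians of 627 and 216 CPM in ctrl mice and 660 and 329 CPM in FL1 mice. The collagen gene Col3a1 fell by 1.64 on the log2 scale from estrus to diestrus in ctrl mice (edgeR adjusted p = 0.0265), whereas Cyp17a1, the androgen enzyme of theca cells and the other gene of the theca and stroma list that was called, rose by 3.16 ± 0.54 (edgeR adjusted p = 0.00690). Fshr, the receptor for follicle stimulating hormone on granulosa cells, rose by 1.71 (edgeR adjusted p = 0.00155). Amhr2, the receptor for anti-Müllerian hormone and the other granulosa marker called, fell by 0.96 (edgeR adjusted p = 0.0230), and 6 of the 10 granulosa markers had a value above 0. The granulosa sum had medians of 9311 CPM in estrus and 13747 CPM in diestrus in ctrl mice and 9443 and 10273 CPM in FL1 mice. These differences go along with those of Clec1a and Angpt2 in ctrl mice, and their part in them was not tested.

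The other genes of the pathway were described from 5 lists. Of the 20 ligands, 15 were tested between the lines in estrus and 14 in diestrus, and 0 were called. Vegfb, a ligand of Flt1, had 68.4 CPM in ctrl mice and 61.6 CPM in FL1 mice in estrus and 59.2 and 63.1 CPM in diestrus. Between the stages 0 of 16 ligands were called in either line. With both lines in 1 fit Apln was called beside Angpt2. Apln is the ligand of the apelin receptor of endothelial cells. It fell by 4.60 ± 1.01 from estrus to diestrus on the log2 scale (edgeR adjusted p = 0.00872). Apln had 3 to 995 counts per library in estrus and 0 to 19 counts in diestrus. Replicate 2 of FL1 mice in estrus held the 995 counts (124 CPM), and the next estrus mouse was at 24.8 CPM. The part of this mouse in the size of the change was not tested.

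Of the 18 receptors, 16 were tested between the lines in either stage, and 0 were called. Of these 12 had a log2 fold change above 0 in estrus (median 0.48) and 15 in diestrus (median 0.73). Nrp2, the co-receptor for VEGF-C and for semaphorins, was closest to the threshold in estrus, with a mean of 55.7 CPM in FL1 mice against 24.0 CPM in ctrl mice, a log2 fold change of 1.21 ± 0.29 and no overlap of the lines (edgeR adjusted p = 0.0655). Groups without overlap made up 3.56% of all genes tested in that comparison and 1.58% between the lines in diestrus. Between the stages 0 of 15 receptors in ctrl mice and 0 of 16 in FL1 mice were called, and 12 and 11 of these had values below 0.

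Among the 13 semaphorins, plexins and partners of the neuropilins, 0 were called in the 4 comparisons of groups. Sema3c, a secreted semaphorin that binds neuropilins, had 41.8 CPM in estrus and 84.3 CPM in diestrus in ctrl mice and 46.7 and 106.2 CPM in FL1 mice, and with both lines in 1 fit it rose by 1.10 ± 0.20 (edgeR adjusted p = 0.00152). Sema3g had the highest level, with means from 114.1 CPM in FL1 mice in estrus to 248 CPM in FL1 mice in diestrus. Sema3f was called between the lines with both stages in 1 fit, with 1 count in 1 of 10 ctrl libraries and 0 in the others, and 0 to 28 counts in FL1 libraries.

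Among the 10 inhibitors of angiogenesis, 9 were tested in each comparison. Thbs1, which encodes thrombospondin 1, rose by 1.13 ± 0.27 from estrus to diestrus in ctrl mice (edgeR adjusted p = 0.0464), from 121 to 267 CPM. Sparc, a matrix protein that binds VEGF-A, fell by 1.49 ± 0.30 (edgeR adjusted p = 0.0193), from 765 to 274 CPM. In FL1 mice the values were 1.11 ± 0.34 for Thbs1 and -1.45 ± 0.31 for Sparc (edgeR adjusted p = 0.200 and 0.0596). Adamts1, a matrix protease with a part in ovulation, fell by 1.49 ± 0.36 with both lines in 1 fit (edgeR adjusted p = 0.0177). It had 13.8 to 453 CPM in estrus and 12.2 to 48.1 CPM in diestrus. Replicate 2 of FL1 mice in estrus stood at 453 CPM, and the next estrus mouse was at 119 CPM. The part of this mouse in the change of Adamts1 was not tested. Between the lines 0 of 9 were called in either stage, and Sparc rose by 0.90 ± 0.22 in FL1 mice with both stages in 1 fit (edgeR adjusted p = 0.0341).

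Of the 16 genes of the hypoxia pathway, 14 were tested in each comparison of groups and 0 were called. Hif1a, the oxygen-regulated factor upstream of Vegfa, had 143 CPM in ctrl mice and 231 CPM in FL1 mice in estrus and 183 and 250 CPM in diestrus, without overlap of the lines in either stage. With both stages in 1 fit it was stronger expressed in FL1 than in ctrl mice, with a log2 fold change of 0.57 ± 0.13 (edgeR adjusted p = 0.0167). Epas1, which encodes HIF-2 alpha, rose from estrus to diestrus by 0.64 ± 0.15 with both lines in 1 fit (edgeR adjusted p = 0.0170). Ddit4, a stress and hypoxia target, had 332 CPM in ctrl mice and 164 CPM in FL1 mice in estrus, a log2 fold change of -1.02 ± 0.25 that missed the threshold (edgeR adjusted p = 0.0606). Across the list the median was 0.23 in estrus and 0.16 in diestrus between the lines, and -0.14 in ctrl mice and 0.05 in FL1 mice between the stages.

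The genes whose log2 CPM followed a member most closely over the 20 mice were looked up among 14938 genes, and Tmem178 came up for both Nrp1 and Pecam1. For Vegfa they were Rgcc (r = 0.77), Slc25a26 (0.75), Tfdp1 (0.75), Tbk1 (0.73) and Alas1 (0.73). For Nrp1 they were Mxra8 (0.91), Tgfbi (0.89), Rab1b (0.89), Tmem178 (0.87) and Tmsb4x (0.87). For Pecam1 they were Pdgfrb (0.93), the PDGF receptor of pericytes and theca, Tgfbr2 (0.91), the globin gene Hbb-bt (0.89), Tmem178 (0.88) and Rpl15 (0.88). For Clec1a and Angpt2, added after their values were seen, the closest genes were Crim1 (0.91), Adamts5 (0.89) and Bmp3 (0.89) for Clec1a and Gm7694 (0.84), Pparg (0.82) and Dock8 (0.81) for Angpt2.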

How the data were processed

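RNA of granulosa cells from 20 mice was measured by QuantSeq 3′ mRNA sequencing, 1 library per mouse and 5 per group. The authors aligned the reads to GRCm38 with STAR and deposited a raw count per gene and library, with no normalization; whether counting used the strand is not given in the sources used here, and no molecular identifiers are stated, so that the floor of 3 counts covers counting error only. Rows of the files that name no gene (multimapping reads, 23.2% to 32.8% of the reads of a library, those without a feature, 7.50% to 19.4%, unmapped and ambiguous reads) stayed out of library sizes and tests. Gene IDs were named with GENCODE M21 (55227 of 55487 matched). Levels are CPM with TMM scaling over the 20 libraries.

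Each comparison was fitted with edgeR 4.0.16 in R 4.3.3 (quasi-likelihood F test, TMM, genes filtered by filterByExpr at 10 counts in a share of 0.7 of the samples and 15 counts in all) on the libraries of its 2 groups, the interaction on all 20. A gene was called at an adjusted p (Benjamini-Hochberg over all genes tested) of at most 0.05. The SE of a log2 fold change was its size over the root of F. Fits of 20 libraries with the other factor as a covariate were added after the data had been seen. Alternatives were DESeq2 1.42.0 (the tool of the study), limma 3.58.1 with voom, robust fitting, RLE scaling, other filters, a replicate block, all samples in 1 fit, and leaving out each mouse. The scripts were tested on simulated data.

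Named are the 10 members, the genes of the 5 pathway lists and 8 marker lists (endothelial, pericyte and smooth muscle, red cell, leukocyte, theca and stroma, granulosa, luteal, oocyte) that were called or, with none called, had the lowest p, as room allowed, and the 5 genes most correlated (log2 CPM, prior count 2) with Vegfa, Nrp1 and Pecam1. Members and lists were chosen with earlier results of these data known. Promoter windows are from RefSeq.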

Additional observations from a re-analysis of the deposited data

Results flagged for a closer look

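In each group of 5 mice the highest and the lowest value of each of the 10 genes were compared with the next value by Dixon's ratio. Of 40 groups tested, 4 held a mouse beyond the critical value of 0.71, where about 2 would be expected for independent, normally distributed values. The CPM were not transformed, some groups hold zeros and the genes share libraries, so this expected number is a rough guide only.

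Angpt2 was at 47.0 CPM in replicate 4 of ctrl mice in estrus, and the next mouse was at 12.2 CPM. Clec1a was at 61.6 CPM in replicate 4 of FL1 mice in estrus, with the next mouse at 23.2 CPM. Tek was at 2.40 CPM in replicate 3 of ctrl mice in estrus, with the next at 0.147 CPM. Pecam1 was at 0 CPM in replicate 1 of ctrl mice in diestrus, and the next lowest mouse was at 4.002 CPM. In the FL1 mouse with the high Clec1a, Angpt2 was at 1.96 CPM, the lowest value of its group.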

How the results depend on the processing

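The count of called members changed in 4 comparisons. Between the lines in estrus it was 0, and 1 (Nrp1) with DESeq2 and with no filter on low counts, and 0 to 1 when a mouse was left out (1 without FL1 replicate 3). Between the stages it was 1 in ctrl mice, 2 with no filter, and 1 to 2 when a mouse was left out (2 without estrus replicate 4, with Angpt2). In FL1 mice it was 0, and 1 (Clec1a) with DESeq2 and with all samples in 1 fit, 2 with no filter, and 0 to 1 when a mouse was left out (1 without estrus replicate 4). Between the lines with both stages in 1 fit it was 0, 1 (Clec1a) with DESeq2 and with no filter, and 0 to 1 when a mouse was left out (1 without FL1 diestrus replicate 4). Elsewhere it did not move. No filter admits genes of few counts, and the cause of the other changes was not tested.

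Of the log2 fold changes, 924 kept direction and side of the threshold when a mouse was left out, 4 passed it and 52 changed direction, none of them called. The ranges of those that changed direction, between the lines in estrus, were -0.40 to 0.044 for Vegfa, -0.25 to 1.20 for Angpt1, -0.61 to 0.44 for Angpt2 and -0.24 to 0.27 for Cdh5, and in diestrus -0.69 to 1.14 for Angpt1 and -0.44 to 0.0089 for Angpt2. Between the stages they were -0.40 to 1.53 for Angpt1 and -0.48 to 0.22 for Flt1 in ctrl mice, and -0.37 to 0.99 for Angpt1, -0.50 to 0.11 for Kdr and -0.069 to 0.53 for Pecam1 in FL1 mice. For the difference of the stage effects they were -1.12 to 0.82 for Angpt1, -0.64 to 0.43 for Angpt2, -0.065 to 0.65 for Flt1 and -0.057 to 0.73 for Nrp1. With both stages in 1 fit they were -0.15 to 0.71 for Angpt1 and -0.39 to 0.091 for Angpt2, and with both lines in 1 fit -0.22 to 0.055 for Vegfa, -0.14 to 0.19 for Flt1, -0.63 to 0.82 for Tek and -0.30 to 0.042 for Pecam1. Under the other alternatives 397 were the same, 8 passed the threshold and 2 changed direction, Cdh5 in estrus (-0.29) and Tek between the stages over both lines (0.68), both with the replicate block.

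Replicate numbers are shared by the groups, but same-numbered mice did not deviate together (r of -0.116 to 0.117 over 20 pairs, 1 over 0.1, and 2 correlated best with their own number). With the replicate block the count of called members was the same in each comparison, and the count over all genes was 58 in place of 100 between the lines in estrus and 13 in place of 32 in diestrus. DESeq2 called 425, 118, 526 and 265 genes in the 4 comparisons of groups (lines in estrus, lines in diestrus, stages in ctrl mice, stages in FL1 mice) where edgeR called 100, 32, 175 and 29, and without a filter edgeR called 373 genes, 55 higher and 52 lower ones, 348 and 299 genes. With voom 21 were called between the lines in diestrus, and with all samples in 1 fit 65 between the stages in FL1 mice. In the fits over 20 libraries DESeq2 called 438 genes between the lines and 873 between the stages (edgeR 181 and 473), 319 were called between the lines with no filter, and for the difference of stage effects DESeq2 called 1 and edgeR with no filter 6 (edgeR 0). Leaving out a mouse gave 66 to 130, 21 to 32, 77 to 176 and 13 to 178 genes in the 4 comparisons of groups. Tek, Angpt1, Flt1 and Pecam1 held 0 counts in at least 1 library each, which limits statements on them.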

Other observations

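Some markers of luteinizing cells were stronger expressed in FL1 mice, in comparisons where 0 endothelial markers passed the test. Of the 6 luteal markers, all 6 had a log2 fold change above 0 between the lines in each stage, with a median of 2.05 in estrus and 1.47 in diestrus, and 3 were called in estrus (Lhcgr, Star and Akr1c18) and 1 in diestrus (Star). Star, which carries cholesterol into mitochondria for steroid synthesis, had 148 CPM in ctrl mice and 637 CPM in FL1 mice at estrus, a log2 fold change of 2.10 ± 0.38 (edgeR adjusted p = 0.0106) and 57.6 and 272 CPM in diestrus (2.25 ± 0.36, edgeR adjusted p = 0.00899). The 6 summed to 2286 to 5968 CPM in ctrl mice and 9752 to 13175 CPM in FL1 mice in estrus, and to 2161 to 6542 CPM and 4097 to 8614 CPM in diestrus.

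The 7 oocyte markers, from a cell that the preparation was meant to leave out, summed to 47.4 to 576 CPM over the 20 libraries. Oocyte transcripts were thus present in each library. Of these markers 0 of 7 were called in any of the 4 comparisons of groups.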
